A study of Mus musculus with 19 samples.

Results

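Melan-a is an immortalised mouse melanocyte line, and 4 knockout lines were derived from it by CRISPR targeting of Bap1 before their messenger RNA was sequenced. Knockout clones 2, 3 and 4 are here set against knockout clone 1, which stood nearest to the unedited cells. The comparison rests on 8 of the 19 samples of the series: 6 libraries of clones 2 to 4 and 2 libraries of clone 1, all labelled BAP1 KO and untreated. The parental Melan-a line, labelled BAP1 WT and untreated, supplied 2 further libraries that are printed for orientation and called WT below. Each line was measured in 2 cultures that the labels call biological replicates, and all 10 bulk libraries carry the same batch label. Each knockout line is 1 clone, so the effect of losing BAP1 and whatever else a clone acquired by editing, cloning or time in culture cannot be told apart. The clones were divided 3 against 1 because of how many genes each changed from WT in these same libraries, so a wide difference between the divisions is built into the comparison, and what is described is which genes make it up. Genes were kept where the means of clones 2, 3 and 4 all lay on one side of both clone 1 cultures. That held for 3894 of the 10803 genes tested (36.0%), of which 2235 lay above (20.7%) and 1659 below (15.4%). The last gene kept was Raph1, whose clone 2 mean cleared the nearer clone 1 culture by 0.00017 on the log2 scale, and the first left out was Trp53i13, whose gap was −5.4e-05.

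BAP1 is a nuclear deubiquitinase that removes ubiquitin from histone H2A and thereby counters the Polycomb repressive complex 1. It works in a complex with ASXL proteins, the transcription cofactor HCF-1, the glycosyltransferase OGT and FOXK transcription factors. Its loss is a frequent event in uveal melanoma, a tumour of melanocytes of the eye, where it marks tumours that tend to spread.

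The deposited table held variance-stabilised values, close to log2, from which whole reads could be recovered. Levels are printed below as normalised reads in each culture, and differences as the mean of clones 2, 3 and 4 minus clone 1 on the stabilised log2 scale, which understates the change of weakly expressed genes. A gene was called where the limma adjusted p (Benjamini-Hochberg over all genes tested) was under 0.05 and all 3 clone means lay on one side of both clone 1 cultures. These p-values measure the spread between cultures of a clone, not between knockout lines. The depth recovered was 30.8 to 43.1 M reads for clones 2 to 4, against 46.8 and 31.8 M for clone 1, with 37.9 and 40.6 M for WT. The SD between the cultures of a line, over genes on the log2 scale, was 0.171 for clone 2, 0.0901 for clone 3 and 0.21 for clone 4, against 0.193 for clone 1 and 0.0548 for WT. The cells carried the melanocyte programme in every library: 9 of 10 melanocyte markers were in the table, and their summed level was 40121 to 50919 CPM in clones 2 to 4, 51042 to 51525 CPM in clone 1 and 52778 to 53213 CPM in WT. Of the defining markers of other cell types, those of keratinocytes and endothelium summed to at most 5.17 and 0.58 CPM in any library, and Krt5, Krt14, Ptprc, Col1a1 and Cdh5 were not among the genes of the table. The fibroblast markers Col1a2 and Pdgfra summed to 47.3 to 109.4 CPM in clones 2 to 4, 85.5 to 90.1 CPM in clone 1 and 84.3 to 86.1 CPM in WT. The immune markers Cd68, Lyz2 and Csf1r summed to 27.6 to 62.3 CPM in clones 2 to 4, 33.7 to 37.9 CPM in clone 1 and 36.7 to 36.8 CPM in WT. The part of these markers in the results below was not tested. In bulk RNA, fewer cells of a type and less RNA per cell cannot be told apart.

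Bap1 did not separate the 3 clones from clone 1. Bap1 (ENSMUSG00000021901, chr14:31251352-31259930 on GRCm38.p6) stood at 1067 and 1124 in clone 2, at 1193 and 1098 in clone 3 and at 491 and 359 in clone 4, against 753 and 655 in clone 1, with 4449.7 and 4392 in WT. All 4 clones lay far below WT, clones 2 and 3 lay above clone 1, and clone 4 lay below it. The difference of clones 2 to 4 from clone 1 was 0.19 (SE 0.10, limma adjusted p = 0.195) and was not called. It took the opposite sign, −0.02, when clone 3 was left out. The remaining transcript thus stood on both sides of clone 1. Among 13 tested members of the BAP1 complex and its partners 1 was called (7.69%), a smaller share than the 21.1% called over all genes. It was Foxk2, a forkhead factor that recruits BAP1 to chromatin. Foxk2 stood at 4887 and 5499 in clone 2, at 5374 and 5333 in clone 3 and at 5232 and 5835 in clone 4, against 3776 and 4453 in clone 1, with 4206 and 4088 in WT. The difference of Foxk2 was 0.37 (SE 0.09, limma adjusted p = 0.0156). It was not called without the first clone 1 culture, nor after quantile normalisation.

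In all, 2281 genes were called (21.1% of the 10803 tested), 1171 higher (10.8%) and 1110 lower (10.3%). The balance of directions depended on scaling and on the expression filter. With each library centred on its median gene 892 were higher and 1307 lower. Centring on the median gene of each chromosome gave 905 higher and 1263 lower. Without an expression filter 1222 were higher and 1525 lower, while a stricter filter gave 1070 higher and 713 lower. The median difference of all genes was 0.05. Large changes were mostly losses: 87 called genes lay at least 1 below clone 1 in every one of the 3 clones, against 12 that lay at least 1 above it. At a distance of 0.5 the counts were 362 and 91. Against the same 2 clone 1 cultures, clone 2 differed in 1243 genes (11.5%), clone 3 in 3175 (29.4%) and clone 4 in 3193 (29.6%) at the same adjusted p. Clone 2 therefore stood nearest to clone 1, and its median absolute difference over all genes was 0.17, against 0.24 in clone 3 and 0.24 in clone 4. The distance from WT had a like order, with medians of 0.22, 0.28 and 0.27 in clones 2, 3 and 4, against 0.13 in clone 1. Without the first clone 1 culture, 949 genes were called, 331 higher and 618 lower, and with the clone as the unit 1 gene was.

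**Figure D1:**
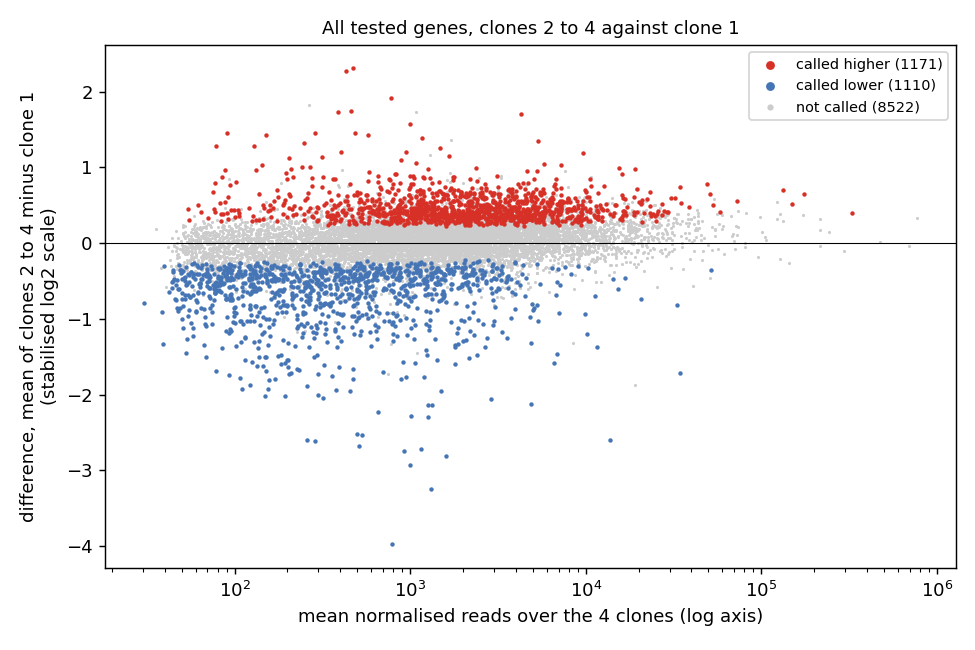
Difference of clones 2 to 4 from clone 1 (mean of the 3 clone means minus the clone 1 mean, stabilised log2 scale) against mean normalised reads over the 4 clones (log axis), one point per tested gene. Red points are the 1171 genes called higher and blue points the 1110 called lower, and the blue points reach further from 0 than the red ones.

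A small set of genes kept only a small share of its clone 1 level in clones 2, 3 and 4, while clone 1 lay in the range of WT or nearer to it. The widest separation belonged to 2310057J18Rik (chr10:28972288-28986306), which the rule for named genes passes over and which is given here because of its value. It stood at 100 and 33.9 in clone 2, at 56.5 and 46.2 in clone 3 and at 45.9 and 54.2 in clone 4, against 3064 and 2940.5 in clone 1, with 1853 and 1893 in WT. The 3 clones together kept 1.87% of the clone 1 level, the cultures did not overlap, and the difference was −3.98 (SE 0.13, limma adjusted p = 7.61e-08). It also kept its call with the clone as the unit. In that fit clone 1 and WT were 1 value each, so the spread came from clones 2 to 4 alone. The division of the clones was drawn from these same libraries, so that call adds no support at the level of knockout lines. Gpr37 (chr6:25668523-25689980), an orphan receptor of the endothelin receptor type, came next and stood at 424 and 641 in clone 2, at 76.3 and 63.6 in clone 3 and at 457 and 439 in clone 4, against 3531 and 4933 in clone 1, with 5836 and 5492 in WT. Its difference was −3.24 (SE 0.14, limma adjusted p = 4.06e-07), with clone 3 lowest. Serpine2, a secreted inhibitor of serine proteases, stood at 34.5 and 56.2 in clone 2, at 54.4 and 45.1 in clone 3 and at 22.9 and 24 in clone 4, against 875 and 944 in clone 1, with 3389 and 3384 in WT. Clones 2 to 4 kept 4.34% of the clone 1 mean (difference −2.60, SE 0.09, limma adjusted p = 7.61e-08). Serpine2 was graded over the lines, since clone 1 itself was lower than WT (clone 1 minus WT −1.71, adjusted p = 2.38e-05), a contrast that 3.50% of genes passed.

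The other genes at the low end have varied roles. Cp, the copper-carrying ferroxidase ceruloplasmin, stood at 696 and 1059.7 in clone 2, at 494 and 411 in clone 3 and at 322 and 339 in clone 4, against 4483 and 4912 in clone 1, with 3405 and 3445 in WT (difference −2.81, SE 0.12). Slc26a7, an anion exchanger, stood at 198 and 199 in clone 2, at 118 and 103 in clone 3 and at 98.7 and 64.3 in clone 4, against 1436 and 1865 in clone 1, with 955 and 1064 in WT (difference −2.68, SE 0.11). In clone 1 both stood above WT, Slc26a7 by 0.61 (adjusted p = 0.0369) and Cp by 0.43 (adjusted p = 0.166, not past the threshold). Emb, or embigin, a membrane partner of monocarboxylate transporters, stood at 44.3 and 40.1 in clone 2, at 33.5 and 31.2 in clone 3 and at 79.2 and 73.1 in clone 4, against 1047 and 959.5 in clone 1, with 1586 and 1591 in WT (difference −2.61, SE 0.08). Pkia encodes a peptide inhibitor of the cyclic AMP-dependent protein kinase and stood at 736 and 489 in clone 2, at 352 and 357 in clone 3 and at 166 and 262 in clone 4, against 3798 and 3016 in clone 1, with 3623 and 3471 in WT (difference −2.72, SE 0.14). The cultures of clones 2 to 4 and of clone 1 did not overlap for any of these 4 genes.

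Ehd3, an ATPase of endocytic recycling, was at 103 to 199 in clones 2 to 4, against 1655 and 1466 in clone 1, with 2065 and 1995 in WT (difference −2.52). Cavin2, a coat protein of caveolae, was at 169.9 to 628 in clones 2 to 4, against 3406 and 2224 in clone 1, with 3712 and 3736 in WT (difference −2.75). Dpysl3, a cytoskeletal protein of the collapsin response, was at 86.8 to 275 in clones 2 to 4, against 1689 and 1623 in clone 1, with 2185 and 2109 in WT (difference −2.54). Cavin2 and Dpysl3 differed among clones 2, 3 and 4 (limma F test, adjusted p = 0.0114 and 0.00236), and Ehd3 did not pass that test (adjusted p = 0.643). Tspan12, a tetraspanin that helps Norrin signal through Frizzled 4, was at 79.5 to 127 in clones 2 to 4, against 968 and 787 in clone 1, with 1779.9 and 1841 in WT (difference −2.01). Rapgef5, an exchange factor for Rap proteins, was at 82 to 209 in clones 2 to 4, against 1093 and 780.5 in clone 1, with 1399.7 and 1373 in WT (difference −2.05), and Ctxnd1 at 109 to 222 in clones 2 to 4, against 1196 and 896 in clone 1, with 1592 and 1622 in WT (difference −1.94). Limma adjusted p-values ran up to 1.73e-05 (Ctxnd1) in these 6 genes, and the 12 named genes of the low end stayed called whichever single culture was left out.

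Mark1, Insyn1 and Ncs1 were among the genes that lay highest above clone 1, which held few of their reads. Mark1 (chr1:184896424-184999954), a kinase that detaches microtubule-associated proteins from microtubules, stood at 1180.2 and 1045 in clone 2, at 280.2 and 343 in clone 3 and at 528 and 359 in clone 4, against 29.5 and 7.88 in clone 1, with 253 and 224 in WT. Its difference was 2.31 (SE 0.13, limma adjusted p = 2.08e-06), clone 2 was highest of the 3, and clone 1 minus WT was −1.47 (adjusted p = 0.00103). Insyn1 (chr9:58488603-58499780), a scaffold protein of inhibitory synapses, stood at 299 and 267 in clone 2, at 759 and 833 in clone 3 and at 488 and 749 in clone 4, against 17.7 and 14.6 in clone 1, with 38.1 and 55.5 in WT. The difference of Insyn1 was 2.27 (SE 0.12, limma adjusted p = 1.69e-06). Ncs1, a neuronal calcium sensor, stood at 135 and 129 in clone 2, at 282 and 288 in clone 3 and at 143 and 207 in clone 4, against 11.8 and 7.88 in clone 1, with 22.9 and 22 in WT (difference 1.42, SE 0.09, limma adjusted p = 6.01e-06). For these 3 genes the mean over clones 2 to 4 was 33.4, 35 and 20.1 times that of clone 1 in normalised reads. Psd2, an exchange factor for the small GTPase Arf6, was at 115 to 209 in clones 2 to 4, against 11 and 11.3 in clone 1, with 51.5 and 69.5 in WT (difference 1.28, SE 0.09). Tmem151a, a membrane protein, was at 309 to 850.1 in clones 2 to 4, against 53 and 46.2 in clone 1, with 185 and 190.1 in WT (difference 1.74, SE 0.10).

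A pair of inward rectifier potassium channel genes were among the 12 that lay highest. Kcnj13, which encodes Kir7.1 and is known from the retinal pigment epithelium, stood at 5141 and 2556 in clone 2, at 3345 and 3305 in clone 3 and at 7499 and 9490.1 in clone 4, against 1897 and 879.6 in clone 1, with 500.2 and 485 in WT (difference 1.71, SE 0.26, limma adjusted p = 0.00125). Clone 4 was highest, and clone 1 stood above WT by 1.15 (adjusted p = 0.0852, not past the threshold). Kcnj4, which encodes Kir2.3, was at 498 to 949.9 in clones 2 to 4, against 122 and 215 in clone 1, with 392 and 362 in WT (difference 1.42, SE 0.13). Adcy7, an adenylyl cyclase, was at 1201 to 2523 in clones 2 to 4, against 502 and 742 in clone 1, with 443 and 474 in WT (difference 1.26, SE 0.14). Adamtsl4, a secreted protein that binds fibrillin microfibrils, was at 916 to 1885 in clones 2 to 4, against 309 and 268 in clone 1, with 231 and 233 in WT (difference 1.58, SE 0.14). Fut11, a fucosyltransferase, was at 1022 to 1212 in clones 2 to 4, against 402 and 377 in clone 1, with 713 and 761 in WT, an even rise over the 3 clones (difference 1.21, SE 0.08).

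Ttc39c, a protein with tetratricopeptide repeats, stood at 77 and 77.6 in clone 2, at 113 and 168 in clone 3 and at 108 and 78.2 in clone 4, against 2.95 and 0 in clone 1, with 159 and 128 in WT. Clone 1 thus carried almost no Ttc39c reads, while clones 2 to 4 lay near WT (difference from clone 1 1.28, SE 0.11, limma adjusted p = 3.5e-05). Clone 1 minus WT was −1.53 (adjusted p = 0.000245). What set Ttc39c apart was thus its low level in clone 1. For Mark1, Insyn1, Ncs1, Tmem151a, Psd2, Fut11 and Kcnj4, WT lay between clone 1 and the other clones. Avil, an actin-binding protein of the villin family, stood at 429 and 1548 in clone 2, at 341 and 337 in clone 3 and at 371 and 572 in clone 4, against 21.4 and 243 in clone 1, with 27.6 and 41.4 in WT (difference 1.46, SE 0.39, limma adjusted p = 0.0204). The clone 1 cultures of Avil differed more than 10-fold and it was not called without the first of them (adjusted p = 0.279). It was the 1 gene of the 24 at the high and low ends that a left-out culture removed.

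**Figure D2:**
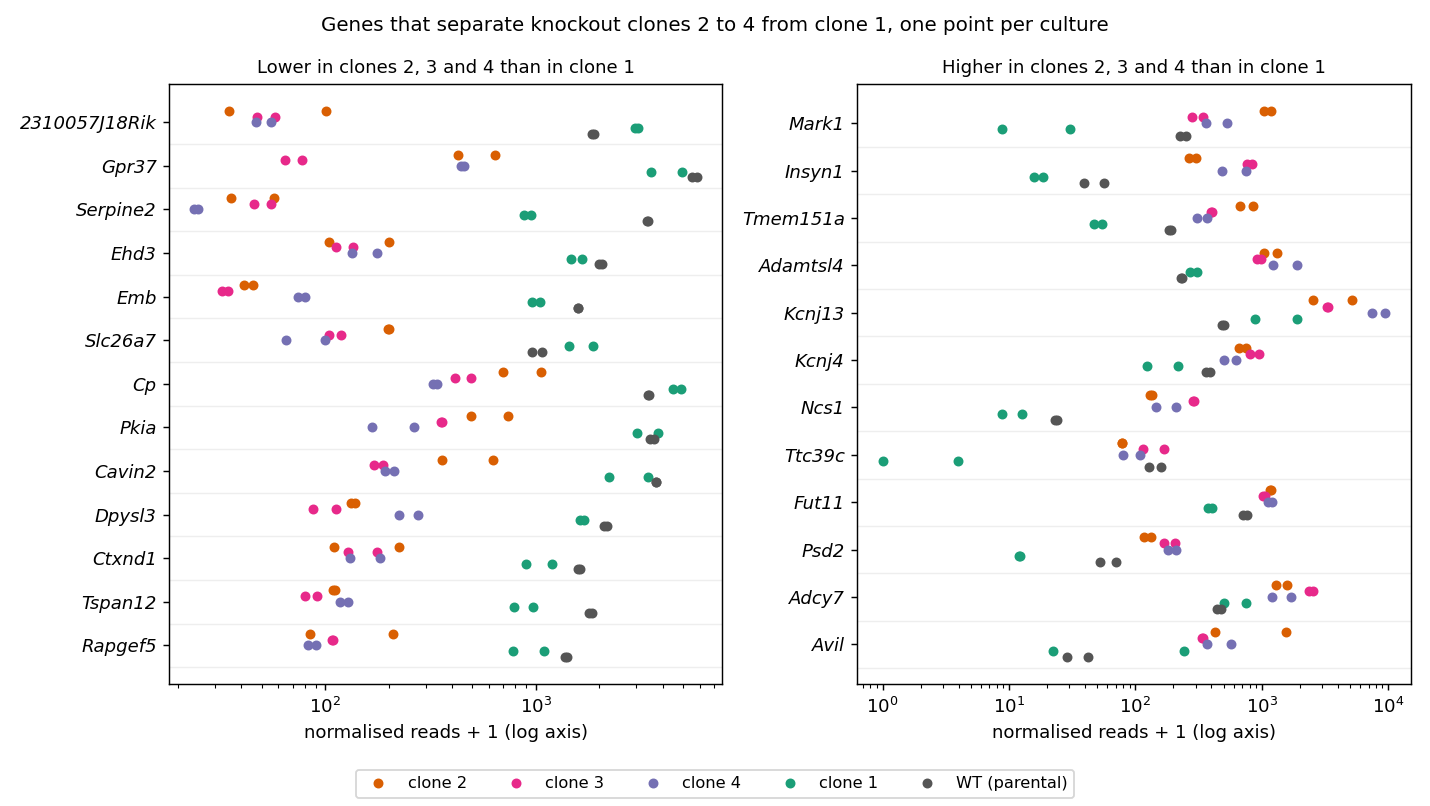
Normalised reads plus 1 (log axis) in each culture for the genes at the low end (left) and at the high end (right), one point per culture, coloured by line with clones 2, 3 and 4 above clone 1 and WT in each row. Points of clones 2 to 4 lie clear of both clone 1 points in every row, and for Ttc39c the clone 1 points lie near 1 while WT lies with the other clones.

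Gene lists are described here by their counts, to be read against the 10.8% of all genes called higher and the 10.3% called lower, and a list whose shares lie near or below these is given as a description only. Because leaving out the first clone 1 culture moved the calls most, the counts without it stand beside most lists. Most of the type I interferon response genes tested were lower in clones 2 to 4 than in clone 1. Type I interferons signal through a complex with STAT2 and IRF9, which binds a short promoter element, the interferon-stimulated response element, in front of antiviral genes. Of 15 tested genes of a type I list, 12 were lower and 0 higher, with a median difference of −0.76, against 10.3% lower, 10.8% higher and a median of 0.05 over all genes. Isg15, a ubiquitin-like modifier, Rsad2, the antiviral enzyme viperin, and Ifit3 and Ifit1, of a family that acts against foreign RNA, carried the response element core in the 250 bases before their start, and these windows are shown with the core in capitals (GAAA, any pair of bases, then GAAA, on either strand, so that TTTC, a pair and TTTC counts too). They are from RefSeq on GRCm38.p6, written 5′ to 3′ on the strand of the gene: Isg15 at chr4:156200819-156201068 on the minus strand, Rsad2 at chr12:26456453-26456702 on the minus strand, Ifit3 at chr19:34583279-34583528 and Ifit1 at chr19:34640639-34640888 on the plus strand.
Isg15: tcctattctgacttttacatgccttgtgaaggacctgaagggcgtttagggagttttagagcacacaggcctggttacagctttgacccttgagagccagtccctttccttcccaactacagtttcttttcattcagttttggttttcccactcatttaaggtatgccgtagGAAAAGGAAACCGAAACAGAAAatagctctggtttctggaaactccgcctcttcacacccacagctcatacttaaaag
Rsad2: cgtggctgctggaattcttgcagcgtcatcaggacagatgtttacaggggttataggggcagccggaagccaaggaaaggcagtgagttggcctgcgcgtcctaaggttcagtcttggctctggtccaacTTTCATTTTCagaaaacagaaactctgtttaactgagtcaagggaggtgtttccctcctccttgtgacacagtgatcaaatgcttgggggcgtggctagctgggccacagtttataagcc
Ifit3: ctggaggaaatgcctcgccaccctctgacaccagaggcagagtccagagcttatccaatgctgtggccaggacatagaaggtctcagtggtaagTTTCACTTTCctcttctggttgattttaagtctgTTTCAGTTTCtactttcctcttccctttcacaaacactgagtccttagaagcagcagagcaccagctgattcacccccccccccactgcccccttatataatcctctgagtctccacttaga
Ifit1: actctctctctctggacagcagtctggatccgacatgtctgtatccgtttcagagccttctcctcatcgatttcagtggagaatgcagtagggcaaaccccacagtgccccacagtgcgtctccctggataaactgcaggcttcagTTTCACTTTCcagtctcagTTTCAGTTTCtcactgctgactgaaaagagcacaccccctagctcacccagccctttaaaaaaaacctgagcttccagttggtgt
The Isg15 window held 3 overlapping copies of the core, those of Ifit3 and Ifit1 held 2 each and that of Rsad2 held 1. The Ifit3 window lay inside the span of its gene, chr19:34583119-34588982, so the start it precedes is not the outermost one. In the window from 250 bases before to 50 after the start, the core stood in 6 of the 9 called interferon genes that had a window, the others being Rigi and Stat2. It was not in the letters of the windows of Cmpk2, Irf9 and Ifit2. Of the 11 tested genes of the type I list with a window, called or not, 7 held the core (63.6%). Over all 27025 genes of the promoter table the share was 3.99%, and among the tested genes with a window 3.22%. Among genes called lower it was 4.47% and among genes called higher 2.11%. A match of letters is a description and not a site.

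In reads, Isg15 stood at 69.9 and 50.8 in clone 2, at 14.6 and 12.7 in clone 3 and at 37.9 and 30.3 in clone 4, against 477 and 219.6 in clone 1, with 280.1 and 254 in WT. Rsad2 stood at 168 and 97.2 in clone 2, at 36.6 and 49.7 in clone 3 and at 68.8 and 94.6 in clone 4, against 632 and 471 in clone 1, with 792 and 863 in WT. Ifit3 stood at 124 and 67.8 in clone 2, at 48.1 and 48.5 in clone 3 and at 70.0 and 46.7 in clone 4, against 949.8 and 278 in clone 1, with 414 and 419.9 in WT, and Ifit1 at 39 and 16.9 in clone 2, at 28.2 and 26.6 in clone 3 and at 12.6 and 8.83 in clone 4, against 440.3 and 101.4 in clone 1. Every culture of clones 2 to 4 lay below both clone 1 cultures for these 4 genes, and the 3 clones together held 10.3% (Isg15), 15.6% (Rsad2), 11% (Ifit3) and 8.13% (Ifit1) of the clone 1 mean. Differences and limma adjusted p-values were −1.55 and 0.000105 for Isg15, −1.64 and 1.55e-05 for Rsad2, −1.73 and 0.00119 for Ifit3, and −1.38 and 0.00278 for Ifit1. Ifi27, a mitochondrial interferon-induced protein, stood at 808 and 697 in clone 2, at 379.6 and 508 in clone 3 and at 920.2 and 803 in clone 4, against 3149 and 2299 in clone 1, with 2044 and 1908 in WT (difference −1.77, adjusted p = 1.04e-05). Genes of the signalling complex were lower too, with differences of −0.60 for Irf9 and −0.55 for Stat2. Other called members were Cmpk2 (−1.14), Mx2 (−0.76), the RNA sensor gene Rigi (−0.64) and Ifit2 (−0.38). Bst2 (−0.37, adjusted p = 0.102), Xaf1 (−0.37, adjusted p = 0.108) and Mx1 (−0.32, adjusted p = 0.389) were not called. Reads of Ifit3, Ifi27 and Mx2 may be shared with close relatives of these genes, since no source used here says how such reads were counted.

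The clone 1 cultures were not alike in this programme. The list median, relative to the clone 1 mean, was −0.47 and −0.65 for clone 2, −1.09 and −1.07 for clone 3, and for clone 4 −0.84 and −0.76, against 0.36 and −0.36 for clone 1 and −0.08 and −0.12 for WT. Without the first clone 1 culture, which was the higher, 8 of the 15 genes were still called lower and the median difference was −0.485, and without the second 14 were. The 4 lost were Rigi, Irf9, Stat2 and Ifit2. The loss was widest in clone 3 for Ifi27, Rsad2 and Isg15.

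**Figure D3:**
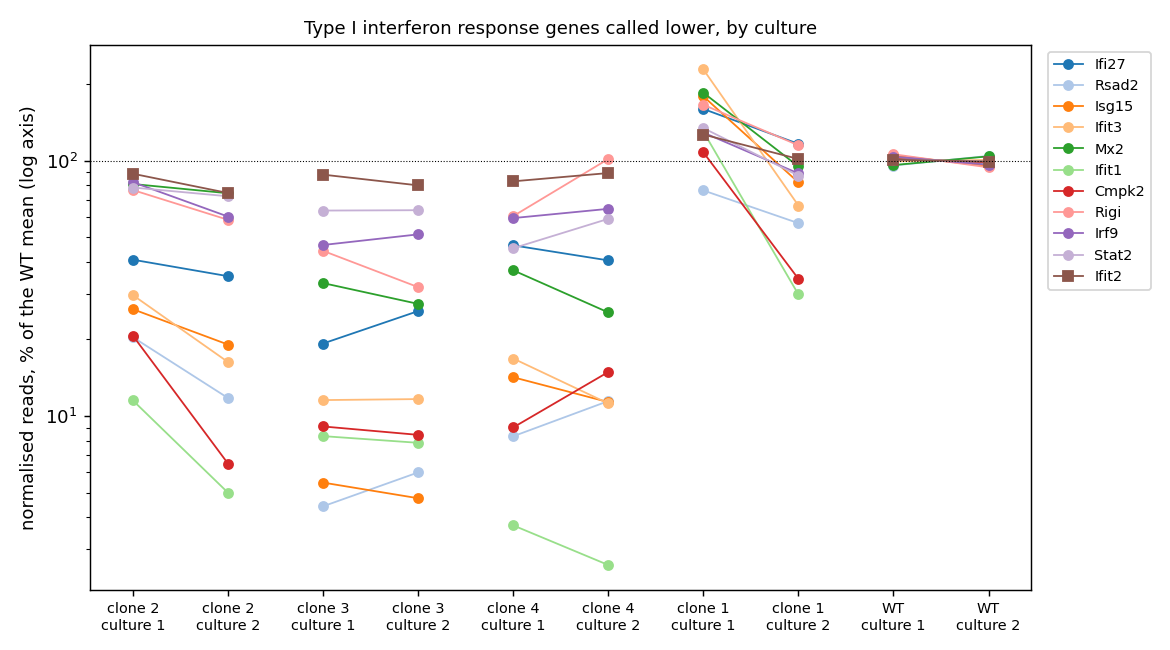
Normalised reads of 11 of the 12 type I interferon genes called lower, as a percentage of the WT mean (log axis), in each of the 10 cultures, with a line joining the 2 cultures of a clone. Clones 2, 3 and 4 lie below clone 1 for every gene shown, and the second clone 1 culture lies below the first.

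Genes of the interferon-gamma response, which starts at the receptor encoded by Ifngr1 and Ifngr2, moved with them: of 11 tested, 7 were lower and 0 higher (median −0.54). The guanylate-binding protein gene Gbp2 stood at 62 and 67.8 in clone 2, at 87.8 and 69.3 in clone 3 and at 16.1 and 24 in clone 4, against 451 and 322 in clone 1, with 191 and 171 in WT. The difference of Gbp2 was −1.51 (SE 0.10, limma adjusted p = 8.42e-06). It was higher in clone 1 than in WT by 0.69 (adjusted p = 0.0169), and Gbp2 levels in all cultures of clones 2 to 4 lay below WT. Irgm2, an immunity-related GTPase, stood at 31.9 and 15.2 in clone 2, at 8.36 and 15 in clone 3 and at 11.5 and 15.1 in clone 4, against 190 and 118 in clone 1, with 188 and 201 in WT (difference −1.13, adjusted p = 9.17e-05). Ifngr1, the ligand-binding receptor chain, was at 184 to 426 in clones 2 to 4, against 740 and 702 in clone 1, with 778 and 771 in WT (difference −0.95). Irgm1 (−1.19), Gbp3 (−0.86), Jak2 (−0.54) and Stat3 (−0.37) were also lower. Cd274, which encodes the T cell inhibitor PD-L1, was not called (0.36, adjusted p = 0.081), with 402 to 1017 in clones 2 to 4, against 468 and 417 in clone 1. Without the first clone 1 culture 5 of the 11 were called, Jak2 and Stat3 being lost.

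Of 15 tested genes of antigen presentation by MHC class I, 3 were lower and 2 higher (median −0.08, against 10.3% lower and 10.8% higher over all genes), and 3 and 1 without the first clone 1 culture. The class I heavy chain gene H2-D1 was at 373 to 834 in clones 2 to 4, against 1176 and 1631 in clone 1, with 2189.6 and 2361 in WT (difference −1.07) and H2-Q4 at 16.1 to 254 in clones 2 to 4, against 373 and 288 in clone 1, with 480.2 and 459 in WT (difference −1.02), although reads of such near-identical genes may be exchanged. Tap2, a subunit of the peptide transporter, was at 204 to 314 in clones 2 to 4, against 369.6 and 395 in clone 1, with 1218 and 1188 in WT (difference −0.39), with most of its fall from WT already present in clone 1 (−1.31, adjusted p = 0.000101). The immunoproteasome subunit Psmb10 was higher, at 314 to 555 in clones 2 to 4, against 262 and 246 in clone 1, with 261 and 229.7 in WT (difference 0.51), as was Tapbpl (0.30). In innate sensing and NF-kB signalling, 15 tested genes gave 4 higher and 1 lower (median 0.14), and 2 and 1 without the first clone 1 culture. The lower one was Tlr3, a receptor for double-stranded RNA, at 74 to 281 in clones 2 to 4, against 369.6 and 321 in clone 1, with 254 and 267 in WT (difference −0.82). The NF-kB subunits Relb (0.51) and Rela (0.32), the TNF-induced gene Tnfaip2 (0.62) and the adaptor gene Ticam1 (0.64) were higher. For Tnfaip2 clone 2 lay 0.09 above clone 1 (limma adjusted p = 0.704), against 0.77 in clone 3 and 0.99 in clone 4.

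Surface and secreted immune regulators separated the lines in both directions: of 16 tested checkpoint and immune ligands 5 were higher and 5 lower (median 0.07), against 21.1% called over all genes, and 3 and 4 without the first clone 1 culture. Cd200r4, of the CD200 receptor family, stood at 629.5 and 739.5 in clone 2, at 373 and 322 in clone 3 and at 27.5 and 11.3 in clone 4, against 2646 and 3229 in clone 1, with 960.5 and 1012 in WT. The difference of Cd200r4 was −2.93 (SE 0.11, limma adjusted p = 1.42e-07). Clone 1 lay above WT by 1.41 (adjusted p = 0.000366), and clones 2 to 4 lay below WT. Cd47, the ligand that inhibits phagocytosis, was at 1514 to 2230.5 in clones 2 to 4, against 3595 and 3327 in clone 1, with 4747 and 4721 in WT (difference −0.79). Csf1, a growth factor of macrophages, was at 122 to 781 in clones 2 to 4, against 867 and 904 in clone 1, with 1912 and 1874 in WT (difference −0.73), with clone 4 lowest. Lgals9 (−0.93) and Nectin3 (−1.07) were lower as well. The galectin genes Lgals1 (0.60) and Lgals3 (0.73), the adhesion genes Nectin1 (0.85) and Nectin2 (0.60) and the proton channel gene Hvcn1 (0.75) were higher. Nectin1, which binds herpesviruses and pairs with Nectin3, was at 1155 to 2002 in clones 2 to 4, against 669 and 773 in clone 1, with 739 and 748 in WT.

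Complement and coagulation genes were lower where they differed: of 13 tested, 6 were lower and 0 higher (median −0.80), and all 6 held without the first clone 1 culture. Besides Serpine2 they were Pros1, which encodes the anticoagulant protein S, the complement gene C4b, the protease genes C1ra and C1rl, and Cd55, which protects cells from complement. Pros1 stood at 40.7 and 21.4 in clone 2, at 57.5 and 79.7 in clone 3 and at 40.2 and 55.5 in clone 4, against 833 and 422 in clone 1, with 1559 and 1556 in WT, and the difference was −2.02 (SE 0.17, limma adjusted p = 2.43e-05). C4b stood at 104 and 167 in clone 2, at 0 and 1.16 in clone 3 and at 153 and 314 in clone 4, against 708 and 619 in clone 1, with 1792 and 1713 in WT, and the difference was −1.88 (SE 0.15, limma adjusted p = 2.16e-05). Clone 3 held almost no C4b reads, and C4a, a near-copy that could exchange reads with it, was not called (0.12). C1ra was at 8.03 to 86.7 in clones 2 to 4, against 209.8 and 244 in clone 1, with 229.6 and 208 in WT (difference −1.05), and Cd55 at 32.4 to 123 in clones 2 to 4, against 310 and 173 in clone 1, with 223 and 219 in WT (difference −1.05). Plat, the tissue plasminogen activator, had a difference of −0.80 (adjusted p = 0.0461) but a clone mean that did not clear both clone 1 cultures, and so was not called.

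Several genes of adhesive matrix proteins outside the collagens were lower in clones 2 to 4. Of 12 tested matricellular and adhesive genes 4 were lower and 0 higher (median −0.63), and 5 and 0 without the first clone 1 culture. Fn1, or fibronectin, the ligand of several integrins, stood at 9484 and 13703 in clone 2, at 10736 and 9326 in clone 3 and at 799 and 985 in clone 4, against 19899 and 45669.6 in clone 1, with 42640.3 and 41364 in WT. The difference of Fn1 was −2.59 (SE 0.25, limma adjusted p = 7.08e-05). Clone 4 was by far the lowest, and the clone 1 cultures themselves lay far apart. Thbs1, thrombospondin 1, an inhibitor of vessel growth, stood at 233.7 and 273 in clone 2, at 499.8 and 477 in clone 3 and at 53.9 and 149 in clone 4, against 2131 and 1447 in clone 1, with 3154 and 3216 in WT. The difference of Thbs1 was −2.23 (SE 0.17, limma adjusted p = 1.21e-05). Spp1, or osteopontin, was at 16433 to 36427 in clones 2 to 4, against 86254 and 56889.9 in clone 1, with 105444 and 105735 in WT (difference −1.71), and Sparc, a collagen-binding glycoprotein, at 5783 to 9052 in clones 2 to 4, against 19437 and 15977 in clone 1, with 25726 and 24994 in WT (difference −1.20). Sparcl1 was not called (−0.45, adjusted p = 0.48), since clone 2 lay above clone 1 and clones 3 and 4 below. Of 14 collagen and basement membrane genes 1 was higher and 2 were lower (median 0.03), with Col11a1 at 8.03 to 53.2 in clones 2 to 4, against 307 and 706 in clone 1, with 142 and 162 in WT (difference −2.02). Lama4 was lower (−0.96) and Col16a1 higher (0.47). Col16a1 lost its call with any of 8 of the 10 libraries left out, the first clone 1 culture among them, and under both centrings. In 13 integrin genes 1 was higher and 3 were lower (median −0.09). Itgb8, which activates TGF-beta with its alpha partner, was at 25.2 to 112 in clones 2 to 4, against 638 and 379.5 in clone 1, with 672 and 771 in WT (difference −1.60). Itga1 was at 4.59 to 36.3 in clones 2 to 4, against 135 and 223 in clone 1, with 248.7 and 229.7 in WT (difference −1.23). Itga8 was lower (−0.55) and the fibronectin receptor gene Itga5 higher (0.50), and neither was called without the first clone 1 culture.

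Myelin and glial genes of the Schwann cell, which shares its neural crest origin with the melanocyte, were among the lower ones. Of 11 tested, 3 were lower and 1 higher (median −0.09). Mbp, a myelin protein, stood at 5174 and 4694 in clone 2, at 3815 and 4076 in clone 3 and at 3167 and 5007 in clone 4, against 14641 and 11885 in clone 1, with 17678 and 17423 in WT. The difference of Mbp was −1.59 (SE 0.15, limma adjusted p = 5.33e-05). S100b, a calcium-binding protein, stood at 2849 and 1184 in clone 2, at 499 and 580.1 in clone 3 and at 1813 and 1803 in clone 4, against 5974 and 2536 in clone 1, with 1905 and 1839 in WT. The difference of S100b was −1.52 (SE 0.30, limma adjusted p = 0.00531). Clone 3 was lowest for S100b, while a single culture of clone 2 overlapped the second clone 1 culture. S100b was not called without the second clone 2 culture. Foxd1, a forkhead factor, was higher (0.66). Without the first clone 1 culture, Mbp was the 1 gene of the 4 still called. Among 14 genes of cadherins and epithelial-mesenchymal transition 3 were higher and 2 lower (median −0.09), and 1 and 3 without the first clone 1 culture. Cdh19, a cadherin of neural crest derivatives, stood at 792 and 607 in clone 2, at 199 and 161 in clone 3 and at 449 and 526 in clone 4, against 3144 and 2247 in clone 1, with 2283 and 2295 in WT. The difference of Cdh19 was −2.28 (SE 0.13, limma adjusted p = 1.95e-06). Vim, the intermediate filament vimentin, was at 2738 to 13476 in clones 2 to 4, against 23695 and 15872 in clone 1, with 19284 and 19674 in WT (difference −1.37), and the higher ones were Timp2 (0.41), Tgfb1 (0.41) and Mmp14 (0.33). Timp2 was not called without the second clone 1 culture, nor Tgfb1 without the first.

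Several genes of the pentose phosphate pathway and of glutathione use were higher in clones 2 to 4. NRF2 is a transcription factor that turns on genes for NADPH supply, glutathione use and iron storage. Of 25 tested genes of this kind 9 were higher and 0 lower (median 0.30, against 10.8% higher and a median of 0.05 over all genes). Srxn1, which restores oxidised peroxiredoxins, stood at 9520.4 and 11011 in clone 2, at 19991 and 20208 in clone 3 and at 23160.5 and 22875 in clone 4, against 7356 and 9425 in clone 1, with 7464 and 7265 in WT. The difference of Srxn1 was 1.00 (SE 0.11, limma adjusted p = 0.000128). G6pdx, the first enzyme of the pentose phosphate pathway, stood at 3503 and 4259 in clone 2, at 7111 and 7370.4 in clone 3 and at 6410.3 and 7692 in clone 4, against 2587 and 3285 in clone 1, with 2369 and 2426 in WT. The difference of G6pdx was 0.95 (SE 0.11, limma adjusted p = 0.000284). Both were highest in clones 3 and 4. Clone 2 did not pass against clone 1 for Srxn1 (0.29, limma adjusted p = 0.175) or G6pdx (0.38, adjusted p = 0.107). Fth1, the ferritin heavy chain, was at 95980 to 209924 in clones 2 to 4, against 75389.9 and 100431 in clone 1, with 71083 and 68189 in WT (difference 0.71), although its reads may be shared with pseudogenes and it was not called without the second clone 2 culture. Tkt (0.85) and Taldo1 (0.45), the transketolase and transaldolase of the same pathway, Gsr (0.51), which reduces glutathione, the export pump gene Abcc2 (0.41), Gpx1 (0.28) and Gstm1 (0.27) were the other 6. Neither Fth1 (0.25, limma adjusted p = 0.355) nor Gsr (0.29, adjusted p = 0.108) passed in clone 2 against clone 1. Without the first clone 1 culture 3 of the 25 were called.

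Of 24 glycolysis and hypoxia genes 6 were higher and 1 lower (median 0.26), and 2 and 1 without the first clone 1 culture. Pgam1 (0.54), Tpi1 (0.53) and Pfkp (0.37) of glycolysis, the glucose carrier gene Slc2a1 (0.50), Ero1a (0.56) and P4ha1 (0.33) were the higher ones. Ndrg1, a stress-responsive gene, went the other way, at 5946 and 5969.5 in clone 2, at 1062 and 1121 in clone 3 and at 1645 and 1836 in clone 4, against 11782 and 9547 in clone 1, with 15237 and 14905 in WT. The difference of Ndrg1 was −2.13 (SE 0.09, limma adjusted p = 4.1e-07). With all 10 libraries fitted, the share called higher lay below the 10.8% of all genes in 4 further lists. It was 6.45% for oxidative phosphorylation, 5.88% for cytosolic ribosomal proteins, 7.14% for cholesterol and lipid synthesis and 7.14% for the amino acid and unfolded protein response. Of 31 genes of oxidative phosphorylation 2 were higher, Cox5a (0.48) and Atp5a1 (0.41), and 1 was lower, the coactivator gene Ppargc1a (−1.08), with a median of 0.13. None of these 3 was called without the first clone 1 culture. Of 34 cytosolic ribosomal protein genes 2 were higher, Rpl3 (0.78) and Rps14 (0.47), and none lower, with a median of 0.25 that was 0.05 without the first clone 1 culture and 0.45 without the second. Neither was called without the first clone 1 culture, and Rps14 lost its call with any of 7 of the 10 libraries left out. Of 28 cholesterol and lipid genes 2 were higher, Fdft1 (0.38) and Nsdhl (0.32), and none lower (median 0.09). Fdft1 lost its call with any of 6 of the 10 libraries left out and Nsdhl with any of 7, the first clone 1 culture among them for both. With the libraries centred on the median gene 0 of the 28 were higher and 1 was lower. Of 28 genes of the amino acid response and the unfolded protein response 2 were higher and 1 lower (median 0.31). By limma 15 of the 28 had an unadjusted p under 0.05, as 4226 of the 10803 genes tested did. Their median was 0.46 without the second clone 1 culture. The higher ones were Xbp1 (0.55) and Mthfd2 (0.51), and the lower one was Slc7a2, a carrier of cationic amino acids, at 328 to 1614 in clones 2 to 4, against 3677 and 2719.8 in clone 1, with 6794 and 6507 in WT (difference −2.14). Neither Xbp1 nor Mthfd2 was called without the first clone 1 culture, where the median was 0.11.

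Of 25 tested lysosomal and endosomal genes 5 were higher and 4 lower (median 0.18, against 10.8% higher and 10.3% lower over all genes), and 2 and 1 without the first clone 1 culture. The calcium channel gene Mcoln1 (0.61) and the two-pore channel gene Tpcn1 (0.78) were higher, with Gla (0.56), Npc1 (0.32) and Atp6v1a (0.28). The protease gene Ctsl was lower, at 21540 to 31966 in clones 2 to 4, against 50426 and 48066 in clone 1, with 46485 and 46781 in WT (difference −0.82), with Atp6v0d2 (−1.10) and Lamp2 (−0.33) among the others. Of 14 ion channel and pump genes 2 were higher, Kcnj13 and Trpv2 (0.58), and 2 lower, the sodium-potassium pump subunits Atp1b2 (−1.32) and Atp1b3 (−0.47), with a median of −0.09, and 1 and 1 without the first clone 1 culture.

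Of 29 genes of melanin synthesis and the melanosome 3 were called (10.3%, against 21.1% over all genes). The higher ones were Hps1 (0.46) and Dtnbp1 (0.40) and the lower one Hps5 (−0.26), with a median of 0.01. All 3 belong to complexes that deliver cargo to melanosomes, and none of them was called without the first clone 1 culture. Hps5 and Dtnbp1 lost their call with any of 7 of the 10 libraries left out. Among 23 tested regulators and receptors of melanocytes 4 were higher and 4 lower (median 0.06), and 1 and 4 without the first clone 1 culture. Pax3, a transcription factor of melanocyte precursors, was at 7482 to 12107 in clones 2 to 4, against 6105 and 6967 in clone 1, with 6991 and 7256 in WT (difference 0.47), and the receptor kinase gene Axl at 9522 to 25509.6 in clones 2 to 4, against 8351 and 10021 in clone 1, with 14647 and 14076 in WT (difference 0.91). Pax3 was not called without the first clone 1 culture, nor Axl without the second clone 4 culture. Tfe3 (0.38) and Gna11 (0.30) were the other higher ones. Plcb4, the phospholipase that acts below G proteins of the Gq class, stood at 92.1 and 57.1 in clone 2, at 83.6 and 94.8 in clone 3 and at 29.8 and 21.4 in clone 4, against 511 and 207 in clone 1, with 501 and 499 in WT. The difference of Plcb4 was −1.30 (SE 0.18, limma adjusted p = 0.000773). Kitl, the ligand of the receptor kinase KIT, was at 279 to 546 in clones 2 to 4, against 888 and 668 in clone 1, with 613 and 559.8 in WT (difference −0.69), and Erbb3 (−0.67) and Tfap2a (−0.45) were lower as well.

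No gene of 24 tested for G2 and M phase was called by limma or by voom, while 3 had an unadjusted p under 0.05, and the clones went different ways. The list median relative to clone 1 was 0.46 for clone 2, −0.46 for clone 3 and −0.19 for clone 4, and −0.07 over the 3. Mki67, the proliferation antigen, named here because of its values, was at 319 and 219 in clone 2, at 26.1 and 30.0 in clone 3 and at 41.3 and 84.5 in clone 4, against 134 and 113 in clone 1, with 67.7 and 62.5 in WT, and the limma F test among clones 2, 3 and 4 gave an adjusted p of 0.000283, where 32.1% of genes tested passed. These RNAs of dividing cells moved differently in each clone beside the other results, and their part in them was not tested. Of 28 S phase genes 4 were higher and 3 lower (median 0.09): Chaf1b (0.69), Mcm2 (0.67), E2f1 (0.59) and Cdt1 (0.48) were higher, and Pola1 (−0.53) and Prim1 (−0.47) were among the lower ones. The counts without the first clone 1 culture were 0 higher and 1 lower, Chaf1b, E2f1 and Pola1 being among those lost. Of 24 CDK inhibitor and p53 target genes 2 were higher and 4 lower (median 0.09), and 2 and 1 without that culture. Cdkn1a, which encodes the CDK inhibitor p21, was at 1373 to 2574 in clones 2 to 4, against 1148 and 1005 in clone 1, with 2154 and 2126 in WT (difference 0.70). Clone 1 was lower than WT (clone 1 minus WT −0.89, adjusted p = 0.00226), and WT lay within the range of the other clones. Plk2, a p53-induced kinase, was lower, at 985 to 1646 in clones 2 to 4, against 2876 and 4034 in clone 1, with 2244 and 2238 in WT (difference −1.34), with Sesn1 (−0.54), Ccng1 (−0.48) and Zmat3 (−0.39), and Bbc3 was higher (0.56).

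The Polycomb genes, whose product complexes BAP1 opposes, showed small differences: of 29 tested 5 were higher, Kdm2b (0.46), Phc2 (0.42), Pcgf3 (0.41), Ezh2 (0.35) and Pcgf6 (0.34), and 2 lower, Cbx7 (−0.36) and Eed (−0.27), with a median of 0.13. None of the 7 was called without the first clone 1 culture. Of 11 Hox and other homeobox genes, a class that Polycomb complexes restrain in many tissues, 2 were higher and 4 lower (median −0.34), and 0 and 5 without the first clone 1 culture. Hoxa5 (−0.64), Alx1 (−0.62) and Meis1 (−0.53) were among the lower ones, and Hoxb4 (0.39) and Meis2 (0.27) were higher.

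Among signalling genes, ID factors, which bone morphogenetic proteins (BMP) induce, were lower. Of 23 tested TGF-beta and BMP genes 6 were lower and 4 higher (median −0.02), and 6 and 1 without the first clone 1 culture, with a median of 0.15. Id4, an inhibitor of basic helix-loop-helix factors, stood at 561 and 698 in clone 2, at 213 and 221 in clone 3 and at 1318 and 2591 in clone 4, against 3128 and 3187 in clone 1, with 3028 and 3038 in WT. The difference of Id4 was −1.96 (SE 0.18, limma adjusted p = 4.87e-05). Id3 was at 526 to 1346 in clones 2 to 4, against 1296 and 2296 in clone 1, with 2198 and 2119 in WT (difference −1.02) and was not called without the first clone 2 culture. Id2 (−0.56), Smad6 (−0.68), Bambi (−0.56) and Acvr1 (−0.40) were lower as well. Gdf11 (0.64), Tgfb1 (0.41), Smad7 (0.39) and Smad3 (0.32) were higher. Of 19 Wnt and YAP targets 1 was higher, Axl, and 4 lower, with a median of −0.13. Lgr4, a receptor that strengthens Wnt signals, was at 348 to 623 in clones 2 to 4, against 1409 and 1002 in clone 1, with 1846 and 1866 in WT (difference −1.10). The other lower ones were Axin2 (−0.40), Fzd7 (−0.34) and Fzd1 (−0.33). Clone 3 lay close to clone 1 for Axin2 (−0.05, limma adjusted p = 0.714) and Fzd7 (−0.02, adjusted p = 0.915), so these 2 differences came from clones 2 and 4. Fzd7 was not called with the libraries centred per chromosome. Of 20 MAPK feedback genes 2 were higher, Phlda1 (0.54) and Cdc25a (0.37), and 2 lower, Il1rap (−1.12) and Hbegf (−0.44), with a median of 0.15. The sign of that median depended on the clone 1 culture, at −0.19 without the first and 0.43 without the second. By clone it was −0.21 in clone 2, 0.39 in clone 3 and 0.31 in clone 4. Of 19 immediate early genes 2 were higher, Klf4 (0.74) and Jund (0.43), and none lower (median 0.21). Their median was 0.05 without the first clone 1 culture and 0.45 without the second. Phlda1, Cdc25a, Klf4 and Jund were not called without the first clone 1 culture.

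Axon guidance genes, which also steer melanocyte precursors, gave 2 higher and 5 lower of 21 (median 0.03), and these counts were the same without the first clone 1 culture. Sema3c, a secreted semaphorin, stood at 371 and 355 in clone 2, at 138 and 111 in clone 3 and at 20.7 and 0 in clone 4, against 742 and 658 in clone 1, with 878 and 897 in WT. The difference of Sema3c was −1.73 (SE 0.14, limma adjusted p = 2.6e-05). Sema6a was at 10.3 to 112 in clones 2 to 4, against 275 and 278 in clone 1, with 522 and 454 in WT (difference −1.36), Robo1, a receptor for Slit proteins, at 18.4 to 46.9 in clones 2 to 4, against 214 and 177 in clone 1, with 304 and 350.3 in WT (difference −1.07), and Slit2 (−1.01) and Epha7 (−0.85) were lower as well. Unc5b (0.82) and Plxnc1 (0.50) were higher. Of 13 genes of neural adhesion and the synapse 1 was called, Nrxn2, at 130.2 and 86.5 in clone 2, at 950.5 and 996 in clone 3 and at 45.9 and 60.5 in clone 4, against 18.4 and 12.4 in clone 1, with 31.4 and 29 in WT (difference 1.45), with clone 3 far above the rest, and the list median was −0.05. From human uveal melanoma, 6 tested genes known to be higher in the metastasising class 2 gave no call by limma or by voom, while 4 had an unadjusted p under 0.05 (median 0.16). Without the second clone 1 culture 2 of these 6 were higher and 1 lower. Of 8 known to be lower in that class 3 were lower, Gpr37, Robo1 and Id2, and none higher (median −0.27).

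Markers of other cells and of RNA quality were counted in the same way. The 2 keratinocyte genes and the 1 fibroblast gene tested were not called by limma (medians −0.11 and −0.05), although 1 of the keratinocyte genes had an unadjusted p under 0.05 and was lower by voom. Of 3 immune and endothelial genes Lyz2 (−1.02) and Kdr (−0.91) were lower and Cd68 (0.56) higher. Cd68 lost its call with any of 8 of the 10 libraries left out and under both centrings, and a culture of clone 2 lay below both clone 1 cultures. Kdr, the VEGF receptor 2, was at 2.29 to 29.3 in clones 2 to 4, against 127 and 85.6 in clone 1, with 516 and 548 in WT. Of 11 mitochondrial and nuclear RNAs that follow RNA quality 3 mitochondrial ones were higher, ND1 (0.65), ND2 (0.51) and CYTB (0.40), and 2 nuclear ones lower, Neat1 (−0.60) and Kcnq1ot1 (−0.47), with a median of 0.18, and 0 and 1 without the first clone 1 culture. ND1 was at 148183 to 259650 in clones 2 to 4, against 97448 and 145553 in clone 1, with 116227 and 115494 in WT. ND2 lost its call with any of 6 of the 10 libraries left out. These RNAs moved with the division of the clones, and their part in the other results was not tested.

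**Figure D4:**
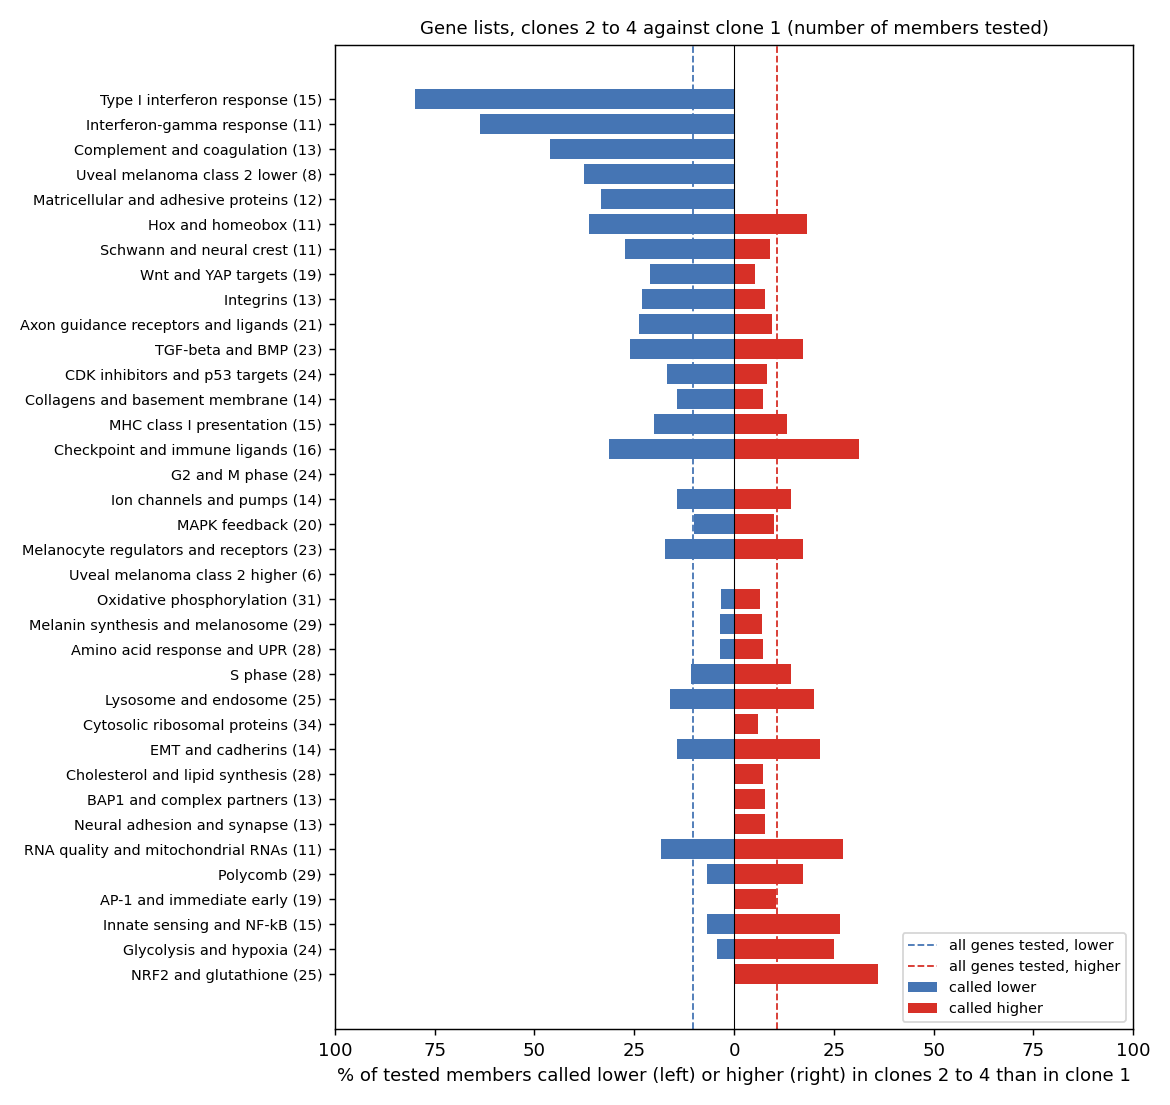
Share of the tested members of each gene list called lower (bars to the left) or higher (bars to the right) in clones 2 to 4 than in clone 1, with dashed lines at the shares over all genes tested (10.3% lower, 10.8% higher). The type I interferon list reaches 80% lower, and the NRF2 and glutathione list 36% higher.

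The widest shifts of whole chromosomes stood in 1 or 2 of the 3 clones, and smaller ones were shared by all 3. On chromosome 11 the median gene lay 0.108 above clone 1 in clone 2, 0.109 in clone 3 and 0.127 in clone 4. On chromosome 19 it lay 0.0949, 0.113 and 0.105 above, against 0.05, 0.03 and 0.05 over all genes tested. Of the 605 tested genes of chromosome 1, 16.4% were called lower and 3.97% higher, against 10.3% and 10.8% over all genes. On chromosome 5 the median gene lay 0.33 above clone 1 in clone 3 and 0.22 above it in clone 4, but 0.04 in clone 2, and 25.3% of its 708 tested genes were called higher, against 10.8% over all chromosomes. On chromosome 18 the median was 0.35 for clone 4, 0.07 for clone 3 and 0.05 for clone 2, and 20.7% were called higher. Clone 1 itself had a median of −0.15 relative to WT there. Clone 4 was also shifted on chromosome 12 (0.34) and chromosome 7 (−0.17), clone 3 on chromosome 15 (−0.26), and clone 2 on chromosome 10 (0.21). Of the called genes named above on chromosome 5, Tpcn1, Hvcn1, Kdm2b and Pcgf3 were higher, while Sema3c, Spp1, Slit2, Ppargc1a, Kdr and Fzd1 were lower, against the shift. On chromosome 18 Ttc39c, Psd2, Rps14, Smad7, Atp5a1 and Npc1 were higher, and Dpysl3, Mbp, Sema6a, Bambi and Hbegf lower. Avil lies on chromosome 10 and Ndrg1 and Kcnj4 on chromosome 15. The part of DNA copy number in these shifts was not tested. With each library centred per chromosome 1853 of the 2281 called genes were still called, but not Kdm2b and Pcgf3 on chromosome 5 nor Rps14 and Atp5a1 on chromosome 18.

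**Figure D5:**
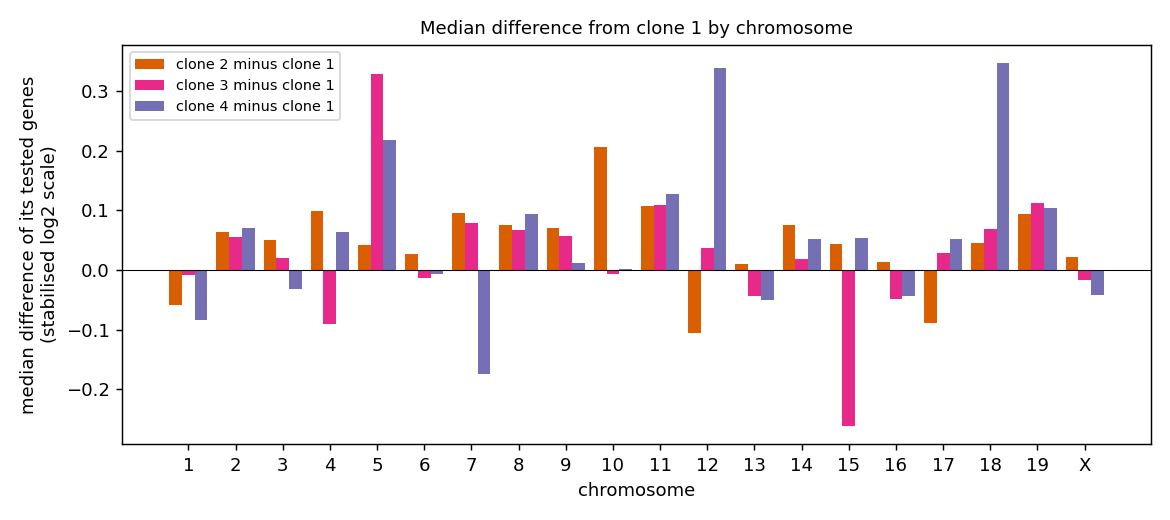
Median difference from clone 1 over the tested genes of each chromosome (stabilised log2 scale), with a bar for clone 2, clone 3 and clone 4. Bars beyond 0.2 stand on chromosome 5 in clones 3 and 4, on chromosomes 12 and 18 in clone 4, on chromosome 10 in clone 2 and, below 0, on chromosome 15 in clone 3.

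The 3 clones did not share one level of each gene. Clones were compared by their means, and for 23 of the 199 called genes at the high and low ends or in the lists a single culture of clones 2 to 4 overlapped the clone 1 cultures. An F test among clones 2, 3 and 4 passed for 851 of the 2281 called genes (37.3%), against 32.1% of all genes tested, and for 1430 it did not, which does not show that those levels were alike. Bap1 was among the genes that differed (adjusted p = 0.000199). Gpr37 differed as well, at −2.63 for clone 2, −4.30 for clone 3 and −2.80 for clone 4 from clone 1 (adjusted p = 0.00019). Fn1 stood at −1.39 for clone 2, −1.57 for clone 3 and −4.82 for clone 4 (adjusted p = 7.88e-05), and Nrxn2 at 0.88 for clone 2, 3.00 for clone 3 and 0.47 for clone 4 (adjusted p = 1.02e-06). The F test did not pass for 2310057J18Rik, Ehd3, Ctxnd1 and Tspan12, and for 2310057J18Rik the differences were −3.91 for clone 2, −4.01 for clone 3 and −4.02 for clone 4 (adjusted p = 0.806).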

How the data were processed

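Bulk libraries were made from polyadenylated RNA with a stranded kit, per the labels' protocols. The authors deposited 1 table of variance-stabilised values on a log2-like scale for 13202 genes in 10 libraries. GRCm38 and mm10 are the builds listed in the submitters' processing notes. No source used here gives the aligner, the way reads were counted, the use of strand or the package behind the values. The table's lowest value, 6.61, marked 1005 values with no reads. The deposited log2 values inverted to whole reads, 100% of them to within 0.01, and to normalised reads after division by each library's size factor. The single-cell files were not used here.

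Genes with a mean at least 1 above the lowest value were tested (10803). limma 3.58.1 in R 4.3.3, with a mean-variance trend, fitted all 10 libraries as 5 groups with 5 residual degrees of freedom, and the contrast was the mean of clones 2, 3 and 4 minus clone 1. An F test compared clones 2, 3 and 4. The steps were tested on simulated data. The alternatives were quantile normalisation, centring of libraries on the median gene or per chromosome, other filters, voom on the recovered reads, no trend, the clone libraries alone, the clone as the unit, a block for the replicate number, and leaving out each clone or culture.

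Named genes were the 12 called genes on each side whose least different clone lay furthest from clone 1, passing over genes with clone IDs (1 was passed over), and up to 4 called members of each of 39 lists with the smallest adjusted p. Other called list members were named so that each list's count can be read, and some members are not reported here. The clones compared, the lists and the naming rule were chosen with earlier results of these data known. Gene positions and promoters are from RefSeq on GRCm38.p6, matched by Entrez ID for 13190 genes. Counting error was not given separately, since each value is 1 library and the spread between cultures was the larger.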

Additional observations from a re-analysis of the deposited data

Results flagged for a closer look

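A pair of named genes held a culture far from the other 5 of clones 2 to 4. Avil stood at 1548 normalised reads in the second culture of clone 2, against 337 to 572 in the other 5, and Rapgef5 stood at 209 in the first culture of clone 2, against 82.0 to 107.5 in the other 5. Chance alone would mark about 1 gene in 20 in this way if all these cultures were independent and shared a common level. The cultures came from different clones, which need not share a level, so that rate cannot be applied here.

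The limma F test found differences among clones 2, 3 and 4 for 15 of the genes named at the ends or as the target. Its adjusted p was 0.000452 for Mark1, 0.0013 for Insyn1, 0.00117 for Tmem151a, 0.0498 for Adamtsl4, 0.0192 for Kcnj13, 0.00621 for Ncs1 and 0.0165 for Adcy7 among the genes higher than in clone 1. Among the lower ones it was 0.00019 for Gpr37, 0.0188 for Emb, 0.0127 for Slc26a7, 0.00182 for Cp, 0.0046 for Pkia, 0.0114 for Cavin2 and 0.00236 for Dpysl3. For Bap1 it was 0.000199, with 0.53 for clone 2, 0.59 for clone 3 and −0.56 for clone 4 relative to clone 1. The other 14 genes lay on one side of clone 1 in all 3 clones because the rule that named them required it.

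Some lists lay above both clone 1 cultures in every culture of one clone and below both in every culture of another, a difference that was not tested. Here the median over the list was taken in each culture, relative to the clone 1 mean, and averaged over the cultures of a clone, so it differs from the median of the fitted differences. The list median for G2 and M phase was 0.432 in clone 2 and −0.484 in clone 3. For EMT and cadherins it was 0.132 in clone 2 and −0.167 in clone 3. Wnt and YAP targets lay at 0.084 in clone 3, −0.165 in clone 2 and −0.455 in clone 4. Axon guidance genes lay at 0.124 in clone 3 and 0.126 in clone 4, and at −0.136 in clone 2. Genes higher in class 2 uveal melanoma lay at 0.209 in clone 4 and −0.0948 in clone 3.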

How the results depend on the processing

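Of 2281 called genes 1652 (72.4%) were shared with the 2136 called after quantile normalisation and 2273 (99.6%) with voom on recovered reads (2372). A stricter filter, 2 above the lowest value, gave 1070 genes higher and 713 lower. Clone 2 then differed from clone 1 in 797, as it did with the 8 clone libraries alone (797). With the clone as the unit 1 gene was called, 0 higher and 1 lower, while 777 had an unadjusted p under 0.05. Without clone 2, 1810 were higher, and without clone 3, 719 were, when Bap1 changed sign (−0.0156). Leaving out 1 culture gave 949 to 2859 called genes, 331 to 1563 higher and 618 to 1296 lower. The lowest of each came without the first clone 1 culture. The same gave 542 to 1824 genes for clone 2, 1267 to 3900 for clone 3, 1728 to 3467 for clone 4 and 1760 to 3875 differing among the 3. The count fell by more than 1.5 times without the first clone 1 culture (728 for clone 2, 1557 for clone 3, 1728 for clone 4), without the second culture of clone 2 (542 for clone 2), without the first or second culture of clone 3 (1443 or 1267 for clone 3, 1760 or 1834 among the 3, and 735 higher without the second) and without either WT culture (796 or 795 for clone 2). With fewer cultures a lone one was taken to vary like the other lines. Of the 142 named genes called, 94 stayed called in every one of the 10 leave-one-out fits. Nearly all of the others lost their call without the first clone 1 culture, some of them without other cultures too. The replicate numbers were not taken as pairing the samples, since not every pair of lines had deviations of same-numbered cultures that correlated above 0.1: clone 1 correlated at 0.73, 0.31 and 0.32 with clones 2, 3 and 4, clones 2 to 4 among themselves at 0.39, 0.11 and −0.026, and WT with the clones at −0.13 to −0.074. The main fit took the cultures as independent, so any shift shared by same-numbered clone cultures was counted as spread. With the replicate block 2627 genes were called, 1402 higher and 1225 lower.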
